A study of Mus musculus with 17 samples.

Results

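The genes described here are 9 stress-inducible and growth-arrest genes of 4 families: Gadd45a, Gadd45b and Gadd45g, Btg1 and Btg2, Ier2 and Ier3, and Zfp36 and Zfp36l1. They were chosen by symbol, with earlier results of these data known. The platform annotation assigns them 15 probes of the array, and each gene is represented by its brightest probe. All 15 probes passed the filter on dim signals, so that all 9 genes are among the 14737 genes measured. Gadd45a, Gadd45b, Gadd45g and Btg1 have a further probe, Zfp36l1 has several, and Btg2, Ier2, Ier3 and Zfp36 have 1 probe each. The probes of Btg2 and Ier2 are dim, since they lay above the array median on 6 and 9 of the 17 arrays. For Ier2 these were the arrays at 3 h and 6 h, and for Btg2 the arrays of WT 3 h and KO 0 h and KO 3 h array 1.

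GADD45 proteins are small acidic proteins that bind the upstream MAP kinase kinase kinase MTK1 (Map3k4), PCNA and the CDK1-cyclin B complex, and are induced by DNA damage, cytokines and growth signals. BTG proteins and ZFP36 proteins both bring the CCR4-NOT deadenylase to messenger RNAs, the BTG proteins by binding its catalytic subunits and the ZFP36 proteins by binding AU-rich elements through CCCH zinc fingers, and this shortens poly(A) tails. IER2 and IER3 are products of immediate-early genes, which are transcribed within minutes of a stimulus without new protein synthesis, and IER3 is known from work on NF-kB, ERK signalling and cell survival. In the uterus estradiol starts a wave of immediate-early transcription before the later growth of the epithelium.

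The study measured total RNA of whole mouse uteri on Illumina MouseWG-6 v2 bead arrays, on which each probe is an oligonucleotide attached to beads. Mice labelled as Egr1 knockout (KO) and as wild type (WT) were studied without estradiol (E2, 0 h) and 3, 6 and 24 h after it, which makes 8 groups with 2 arrays each, or 3 for WT 3 h, and 17 arrays in all. The sources used here do not give the knockout allele, its zygosity, the strain, age, ovarian state, E2 dose or vehicle. Nothing there states whether replicate arrays stand for different animals, and p-values therefore measure the spread between these arrays, which may be technical. Arrays of a group are named below by the replicate number in their labels.

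Values are log2 and were normalized between arrays by the authors, so a change is read against the remaining genes on an array, and a change of 1 is a doubling of the signal. Because whole uteri were used, fewer cells of a type and less RNA per cell cannot be told apart. The correlation over all probes between arrays of a group was 0.990 to 0.997. Smooth muscle (Acta2, Myh11, Actg2), epithelial (Krt8, Krt18, Cdh1) and uterine markers (Esr1, Pgr, Hoxa11) were measured, while Hoxa10 did not pass the filter. The probe of Egr1, the disrupted gene, was bright in the arrays labelled KO: before E2 it averaged 13.55 ± 0.11 (SD, n = 2) for KO against 12.37 ± 0.19 (SD, n = 2) for WT. The KO mean was also above the WT mean at 6 h (14.65 and 13.91) and 24 h (13.39 and 11.74), and at 3 h it was 14.64 against 14.79. The sources used here do not say whether this probe lies within the disrupted part, and KO and WT below stand for arrays with those labels.

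Promoter sequences were examined because the disrupted gene encodes a DNA-binding factor and because these genes are known to be switched on by a few short elements. RefSeq promoter windows of assembly GRCm38.p6, the 250 bases before the start of the gene, were found for 8 of the 9 genes, all but Ier2. They were searched on both strands for an EGR1 site (GCGNGGGCG), a CArG box (the serum response element core, by name), a cyclic AMP response element (TGACGTCA), an AP-1 site (TGANTCA) and an estrogen response element (GGTCA and TGACC with any 3 bases between). The EGR1 letters were found in 4.7% of 32851 promoters of this length, the CArG box in 1.47%, the cyclic AMP element in 1.55%, the AP-1 site in 6.75% and the estrogen element in 0.0639%. The windows below are those with a match, shown 5′ to 3′ on the strand of the gene with the matched letters in capitals. Zfp36 has an EGR1 site and a CArG box (chr7:28379267-28379343, minus strand), Btg2 a cyclic AMP element and an EGR1 site (chr1:134079268-134079331, minus strand), Gadd45b an EGR1 site on the strand opposite to the gene (chr10:80930051-80930079, plus strand), and Zfp36l1 an AP-1 site (chr12:80113126-80113152, minus strand).
Zfp36: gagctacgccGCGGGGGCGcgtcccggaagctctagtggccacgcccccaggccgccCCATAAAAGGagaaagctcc
Btg2: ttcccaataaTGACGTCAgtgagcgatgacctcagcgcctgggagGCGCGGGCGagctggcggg
Gadd45b: ccgctcgcagCGCCCGCGCgctcactccg
Zfp36l1: accgcatggcTGATTCAacctcagtgt
None of the matches overlap. Gadd45a, Gadd45g, Btg1 and Ier3 held none of these letters in this window. Sequence outside the window was not searched, and a relation of these matches to the changes described below was not tested.

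The first question was how these genes respond to E2 in WT uteri. At 3 h 8 of the 9 genes were higher and 1, Btg1, was lower than at 0 h (limma, adjusted p below 0.05), where 22.2% of all genes were higher and 24.5% lower. The median change of the 9 genes was 0.62, against -0.01 over all genes. Since the 9 genes were chosen with earlier results of these data known, the shares of all genes here and below only describe the background. They are no test of the 9 genes as a set. At 6 h 6 of 9 were higher and 1 lower (21.9% and 22.1% of all genes), with a median of 0.34. The higher genes at 3 h and 6 h include Ier2, which passed the filter on dim signals only through its arrays at those times. At 24 h 2 were higher, Gadd45a and Ier3, and 3 were lower, Gadd45b, Btg1 and Zfp36l1 (18.9% and 19.0% of all genes), with a median of -0.09. Without WT 6 h array 1 the count of higher genes at 6 h was 3.

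**Figure D1:**
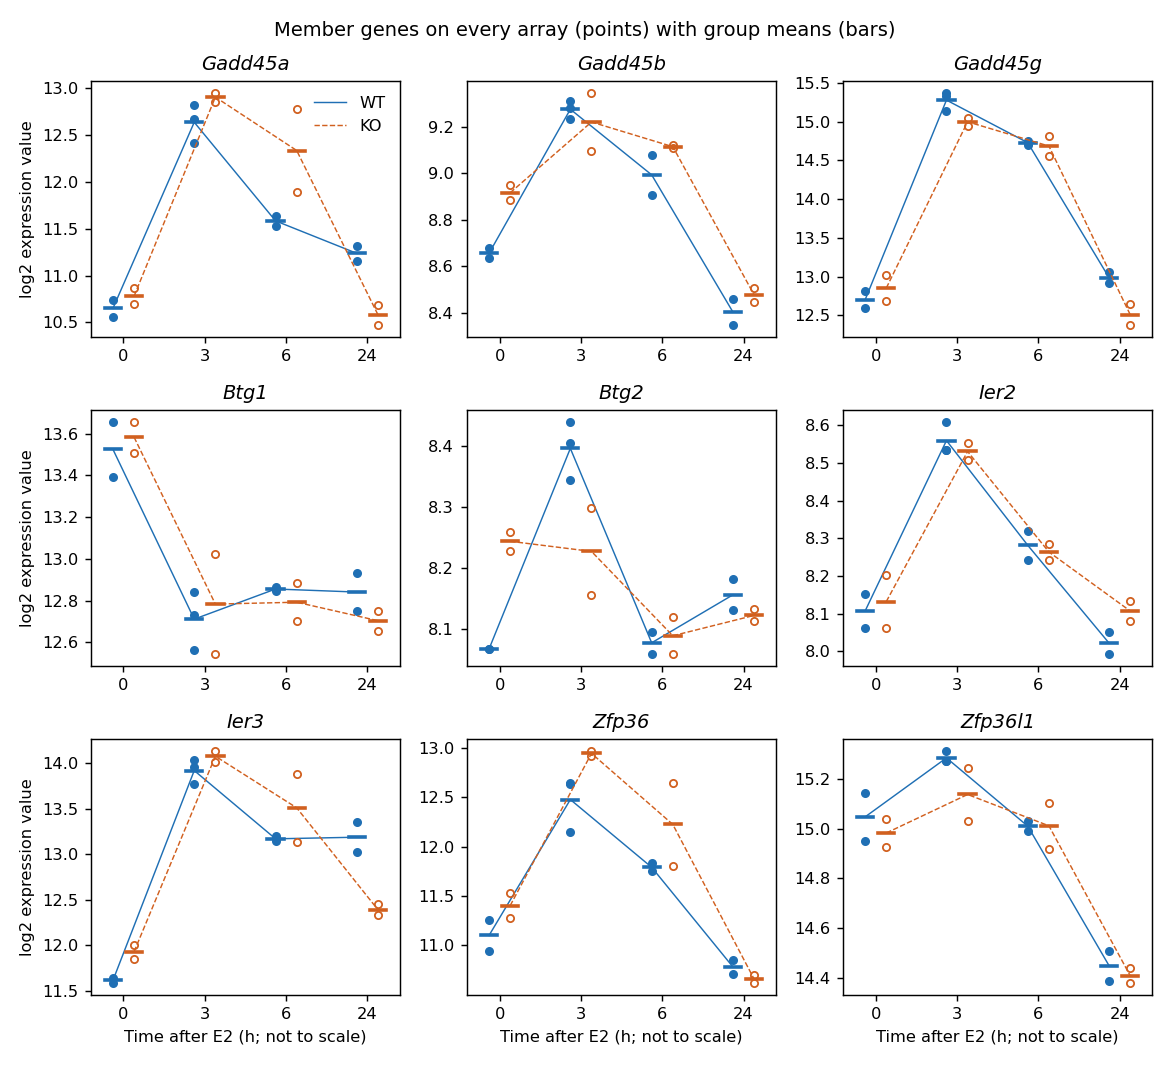
Log2 expression value (vertical axis, its own range in each panel) of the 9 genes by hours after E2 (horizontal axis, not to scale), with a point for each of the 17 arrays and a bar for each group mean. WT is blue with filled points and KO orange with open points. Apart from Btg1, which is highest at 0 h, and Btg2 in KO, every gene has its highest mean at 3 h, and the points of KO at 6 h lie far apart for Gadd45a, Ier3 and Zfp36.

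Of the GADD45 genes, Gadd45g had the largest change of the 9. Its values in WT were 12.81 and 12.59 at 0 h, 15.14, 15.32 and 15.37 at 3 h, 14.75 and 14.70 at 6 h, and 12.92 and 13.06 at 24 h. The 3 h and 6 h arrays all lay above the 0 h and 24 h arrays. The rise was 2.58 ± 0.12 (SE) at 3 h, 5.97-fold (limma, adjusted p = 2.28e-09), which ranks 32 of 14737 genes, and 2.03 ± 0.13 at 6 h (6.16e-08). The change of 0.28 at 24 h did not pass the test (1.03e-01). In KO the values were 13.02 and 12.68 at 0 h, 15.05 and 14.94 at 3 h, 14.56 and 14.81 at 6 h, and 12.64 and 12.37 at 24 h. Gadd45g rose in KO by 2.15 ± 0.13 at 3 h (limma, 4.06e-08) and by 1.83 ± 0.13 at 6 h (1.31e-07). At 24 h it was lower than at 0 h by -0.34 (4.13e-02), a call that was lost without KO 0 h array 1 (-0.18) or KO 24 h array 2 (-0.21), and also without any of WT 3 h array 2 and both WT 6 h arrays, which enter only through the shared estimate of the spread (5.23e-02 to 5.43e-02). It was also lost with the dimmer probe of Gadd45g (-0.18, 3.30e-01), the mean of both probes (-0.26, 1.01e-01) and a fit of these groups alone (7.13e-02). A replicate block in the limma model, by description number (5.15e-02) or by title letter (6.13e-02), ended it as well. The WT change of Gadd45g at 24 h passed with the dimmer probe (0.37, 3.97e-02) or the mean of both (0.33, 4.76e-02).

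Gadd45a, the founding member of the family and a known p53 target, rose as early but kept less of its rise at 6 h in WT. In WT its values were 10.74 and 10.56 at 0 h, 12.67, 12.82 and 12.42 at 3 h, 11.63 and 11.53 at 6 h, and 11.16 and 11.32 at 24 h. No array of a later time fell among the 0 h arrays. The change was 1.99 ± 0.19 (SE) at 3 h (limma, adjusted p = 1.09e-06), 0.94 ± 0.21 at 6 h (1.94e-03) and 0.59 ± 0.21 at 24 h (3.76e-02). The 24 h call was lost without either WT 0 h array (0.68 and 0.50), either WT 24 h array (0.67 and 0.51), WT 3 h array 1 or either WT 6 h array (0.59 each, with adjusted p of 5.06e-02 to 5.07e-02 from the change in the spread). In KO the values were 10.87 and 10.69 at 0 h, 12.96 and 12.86 at 3 h, 11.89 and 12.78 at 6 h, and 10.69 and 10.47 at 24 h. Array 2 of KO at 6 h was thus close to the 3 h level and array 1 close to the WT 6 h level. Gadd45a rose in KO by 2.13 ± 0.21 at 3 h (2.46e-06) and by 1.56 ± 0.21 at 6 h (2.53e-05), with 1.11 without KO 6 h array 2 and 2.00 without array 1, both past the test. The change of -0.20 at 24 h in KO did not pass (5.05e-01).

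Gadd45b, which is known as an early response gene to TGF-beta and NF-kB, changed less. Over all arrays it ran from 8.35 in a WT 24 h array to 9.35 in a KO 3 h array. In WT it rose by 0.62 ± 0.07 (SE) at 3 h (limma, adjusted p = 8.32e-06) and by 0.34 ± 0.08 at 6 h (3.28e-03), and at 24 h it was lower than at 0 h by -0.25 (2.28e-02). The 6 h call was lost without WT 6 h array 1 (0.25), and the 24 h call without WT 0 h array 2 (-0.23) or WT 24 h array 1 (-0.20). In KO it rose by 0.30 ± 0.08 at 3 h (7.17e-03), which was lost without KO 0 h array 2 (0.27) or KO 3 h array 1 (0.18) and in a fit of these groups alone (7.35e-02). The KO change of 0.20 at 6 h did not pass (6.02e-02), and the fall to -0.44 ± 0.08 at 24 h did (4.07e-04).

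The IER genes rose at 3 h in both genotypes. Ier3 had WT values of 11.59 and 11.64 at 0 h, 13.95, 14.03 and 13.77 at 3 h, 13.20 and 13.14 at 6 h, and 13.02 and 13.35 at 24 h. Every later WT array lay more than 1 above the 0 h arrays, and Ier3 was the only one of the 9 genes with a 24 h rise above 1. Its changes in WT were 2.30 ± 0.16 (SE) at 3 h (limma, adjusted p = 7.45e-08), 1.55 ± 0.18 at 6 h (7.33e-06) and 1.57 ± 0.18 at 24 h (1.80e-05). In KO Ier3 had values of 11.85 and 12.01 at 0 h, 14.13 and 14.02 at 3 h, 13.14 and 13.88 at 6 h, and 12.45 and 12.33 at 24 h. Both KO 24 h arrays lay between the 0 h arrays of KO and the 24 h arrays of WT. The KO changes were 2.15 ± 0.18 at 3 h (6.11e-07), 1.58 ± 0.18 at 6 h (5.65e-06; 1.21 without KO 6 h array 2) and 0.46 ± 0.18 at 24 h (4.73e-02).

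That 24 h rise of Ier3 in KO was lost without any 1 of 13 arrays, with values of 0.38 to 0.54. They are every array but the 4 of KO 6 h and WT 24 h. It was also lost with cyclic loess (0.39, 1.06e-01), with median centring (5.14e-02), without the filter on dim probes (5.61e-02) and with the mean of probes (5.20e-02). Ier2 was near the dim end of the array, from 7.99 to 8.61. Only its 3 h and 6 h arrays lay above the array median, so Ier2 passed the filter only through groups where it was high. It rose by 0.45 ± 0.06 (SE) at 3 h in WT (limma, adjusted p = 1.55e-05) and by 0.40 ± 0.06 in KO (1.48e-04), and the 5 arrays at 3 h, from 8.51 to 8.61, were above all other arrays. At 6 h the WT rise of 0.17 ± 0.06 (3.62e-02) was lost without WT 0 h array 1 (0.13) or WT 6 h array 1 (0.14), with array weights (9.36e-02) and in a fit of these groups alone (1.29e-01), and the KO change was 0.13 (1.09e-01). The 24 h changes of -0.09 in WT and -0.03 in KO did not pass (3.41e-01 and 8.13e-01).

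Zfp36, which encodes tristetraprolin, rose and then dropped to or under its starting level. Its WT values were 10.95 and 11.26 at 0 h, 12.64, 12.63 and 12.15 at 3 h, 11.83 and 11.75 at 6 h, and 10.71 and 10.85 at 24 h. The order of the WT times was 3 h, 6 h, 0 h and 24 h, with no overlap between neighbours. The rise was 1.37 ± 0.20 (SE) at 3 h (limma, adjusted p = 4.92e-05) and 0.69 ± 0.22 at 6 h (1.82e-02). The 6 h call was lost without WT 0 h array 1 (0.53) or either WT 6 h array (0.65 and 0.73). The WT change of -0.32 at 24 h did not pass (2.98e-01). In KO the values were 11.28 and 11.53 at 0 h, 12.92 and 12.97 at 3 h, 11.80 and 12.64 at 6 h, and 10.62 and 10.70 at 24 h. Zfp36 rose in KO by 1.54 ± 0.22 at 3 h (5.77e-05) and by 0.82 ± 0.22 at 6 h (6.11e-03). The latter was lost without KO 6 h array 2 (0.40) or KO 0 h array 1 (0.69) and in a fit of these groups alone (6.87e-02).

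At 24 h Zfp36 was below its 0 h level in KO by -0.74 ± 0.22 (SE; limma, adjusted p = 1.14e-02), which was lost without KO 0 h array 2 (-0.62) or KO 24 h array 1 (-0.70). Zfp36l1 was among the brightest probes, from 14.38 to 15.31, on arrays whose highest value is 15.94. Its rise of 0.24 ± 0.08 at 3 h in WT (2.38e-02) was lost without WT 0 h array 1 (0.14) or WT 3 h array 2 (0.22) and with array weights (5.78e-02), and the KO change was 0.15 (1.87e-01). At 6 h the changes were -0.04 in WT and 0.03 in KO (7.83e-01 and 8.41e-01). By 24 h Zfp36l1 had fallen by -0.60 ± 0.09 in WT (1.20e-04) and by -0.57 ± 0.09 in KO (8.14e-05), and the 4 arrays at 24 h, from 14.38 to 14.51, lay below the other 13.

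The BTG genes differed from the rest. Btg1, an antiproliferative gene, had WT values of 13.39 and 13.66 at 0 h, 12.84, 12.73 and 12.56 at 3 h, 12.86 and 12.85 at 6 h, and 12.75 and 12.93 at 24 h. In KO the values were 13.66 and 13.51 at 0 h, 12.54 and 13.02 at 3 h, 12.88 and 12.70 at 6 h, and 12.66 and 12.75 at 24 h. The 0 h arrays were the 4 highest, and all later groups overlapped their neighbours in the order of levels. Btg1 fell by -0.81 ± 0.13 (SE) in WT (limma, adjusted p = 1.07e-04) and by -0.80 ± 0.14 in KO (3.52e-04) at 3 h, and lay at -0.67 and -0.79 at 6 h and at -0.68 and -0.88 at 24 h, all past the test. Btg2, which is known as a p53 target and early response gene, ran only from 8.06 to 8.44. In WT it rose by 0.33 ± 0.05 at 3 h (1.48e-04), where the values of 8.44, 8.41 and 8.34 lay above 8.07 and 8.07 at 0 h, and its changes of 0.01 at 6 h and 0.09 at 24 h did not pass (9.16e-01 and 2.82e-01).

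In KO Btg2 had values of 8.26 and 8.23 at 0 h and of 8.30 and 8.16 at 3 h, so that the groups overlapped and the change of -0.02 ± 0.06 (SE) did not pass (limma, adjusted p = 8.69e-01). The 6 h change of -0.15 ± 0.06 in KO passed narrowly (4.48e-02) and was lost without any 1 of 11 arrays, among them all 4 of the arrays compared (-0.12 to -0.18). It was also lost with cyclic loess (5.60e-02), array weights (5.19e-02) and a fit of these groups alone (1.08e-01). The 24 h change of Btg2 in KO, -0.12, did not pass (1.13e-01), except with array weights (3.97e-02). Over the 9 genes in KO, 6 were higher and 1 lower at 3 h (19.0% and 21.4% of all genes), with a median of 0.40. At 6 h 4 were higher and 2 lower (21.8% and 23.0%), and at 24 h 1 was higher and 5 lower (22.5% and 23.1%). The KO medians at 6 h and 24 h were 0.20 and -0.34.

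**Figure D2:**
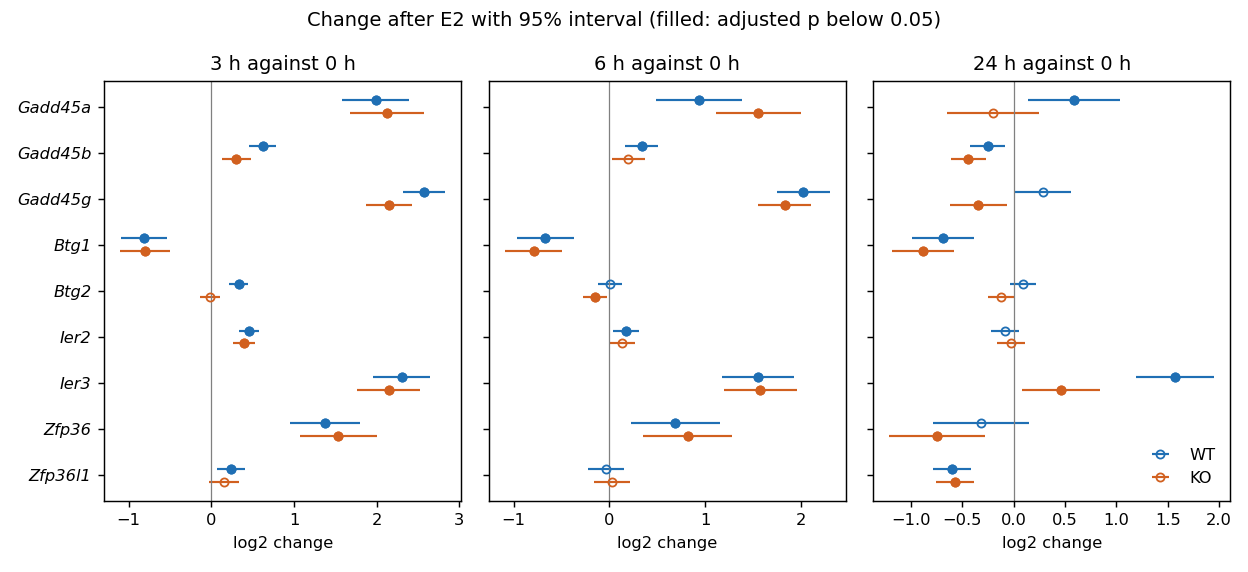
Log2 change from 0 h (horizontal axis) of the 9 genes at 3, 6 and 24 h in WT (blue) and KO (orange), with 95% intervals from the limma fit; filled points have an adjusted p below 0.05. The rises of Gadd45a, Gadd45g and Ier3 at 3 h lie near 2 in both genotypes, and at 24 h the point of Ier3 stands at 1.57 in WT and 0.46 in KO.

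The steps between times show how fast the rises were lost. From 3 to 6 h 8 of the 9 genes were lower in WT, all but Btg1 (12.7% of all genes), and 3 of 9 were lower in KO (11.7%). Gadd45a had the largest WT step, -1.05 ± 0.19 (SE, limma, adjusted p = 1.10e-03). At 6 h 47.0% of its 3 h change on the log2 scale was left, against 78.7% for Gadd45g, 67.5% for Ier3, 54.5% for Gadd45b and 50.2% for Zfp36. Less was left of the smaller 3 h changes of Ier2 (38.5%), Btg2 (3.1%) and Zfp36l1 (-15.7%). Without WT 6 h array 2 the WT count was 5. The steps of Gadd45b (-0.20 without WT 6 h array 2), of Zfp36 (-0.60 to -0.72 without WT 3 h array 1, WT 3 h array 2 or either WT 6 h array) and of Zfp36l1 (-0.25 to -0.29 without WT 3 h array 2 or either WT 6 h array) each lost their call when 1 array was left out. In KO the genes that fell were Ier2 (-0.27, 7.32e-03), Ier3 (-0.57, 3.27e-02) and Zfp36 (-0.72, 2.76e-02), and Gadd45a missed the threshold (-0.57, 6.29e-02) that it passed with a stricter filter (4.74e-02) or cyclic loess (4.38e-02). All 3 of the KO calls were lost with array weights (5.14e-02 to 9.46e-02) and in a fit of these groups alone (1.05e-01 to 2.19e-01).

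The KO steps of Ier3 and Zfp36 were lost without KO 6 h array 1 (-0.19 and -0.30) or either KO 3 h array (-0.51 and -0.63 for Ier3, -0.74 and -0.69 for Zfp36), and the KO count was 1 without KO 6 h array 1 or KO 3 h array 1. From 6 to 24 h 5 of 9 genes were lower in WT (19.0% of all genes) and 6 of 9 in KO (18.6%). Gadd45g fell most, by -1.74 ± 0.13 (SE) in WT (limma, adjusted p = 4.68e-07) and by -2.18 ± 0.13 in KO (9.86e-08). Zfp36 fell by -1.01 ± 0.22 in WT (1.94e-03) and by -1.56 ± 0.22 in KO (6.11e-05). Gadd45b and Zfp36l1 also fell in both genotypes, by -0.59 and -0.56 in WT and by -0.64 and -0.60 in KO. The Ier3 step was 0.02 ± 0.18 in WT (9.58e-01) and -1.12 ± 0.18 in KO (1.79e-04). Gadd45a fell in KO by -1.76 ± 0.21 (1.61e-05). These steps share arrays with the comparisons against 0 h.

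KO was then set against WT at each time. None of the 9 genes passed at 0 h, 3 h or 6 h by limma, where 4.43%, 4.23% and 0.631% of all genes passed in either direction. At 0 h both KO arrays lay above both WT arrays for 4 of the 9 genes, which held for 22.1% of all genes: Gadd45b (0.26, adjusted p = 8.86e-02), Btg2 (0.18, 1.13e-01), Ier3 (0.31, 3.85e-01) and Zfp36, whose KO arrays at 11.28 and 11.53 stood against 10.95 and 11.26. At 3 h Gadd45g was at -0.28 (2.12e-01), Btg2 at -0.17 (9.52e-02) and Zfp36 at 0.47 (2.18e-01), and at 6 h Gadd45a was at 0.75 (1.27e-01; 0.31 without KO 6 h array 2). At 24 h 2 of 9 genes were lower in KO, Ier3 and Gadd45g (4.27% of all genes), and none was higher. The count was 0 without KO 24 h array 2 or WT 24 h array 2, and 1 without KO 24 h array 1, WT 24 h array 1 or either WT 6 h array.

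Ier3 at 24 h was lower in KO than in WT by -0.80 ± 0.18 (SE; limma, adjusted p = 1.37e-02), with the KO arrays at 12.45 and 12.33 and the WT arrays at 13.02 and 13.35. The call was lost without KO 24 h array 1 (-0.86), KO 24 h array 2 (-0.74) or WT 24 h array 2 (-0.63). Gadd45g was lower by -0.48 ± 0.13 (3.49e-02), with 12.64 and 12.37 in KO and 12.92 and 13.06 in WT. It lost the call without KO 24 h array 2 (-0.35), either WT 24 h array (-0.55 and -0.41) or either WT 6 h array (5.28e-02 from the change in the spread). Gadd45a was lower by -0.66 ± 0.21 without passing (7.12e-02), but passed with array weights (2.84e-03) and in a fit of the compared groups alone (1.39e-03). For all 3 genes the KO and WT arrays did not overlap, which held in this direction for 29.6% of all genes.

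Whether the response itself differed was tested with the interaction, the KO change minus the WT change, which also takes in the 0 h difference with its sign reversed. No gene of the 9 passed at 3 h or 6 h by limma (1.09% and 0.400% of all genes). At 3 h the lowest values were those of Gadd45g (-0.43, adjusted p = 2.88e-01), Btg2 (-0.35 ± 0.08 SE, 5.54e-02; past the test with an intensity trend, 3.99e-02, and with the mean of probes, 4.49e-02) and Gadd45b (-0.32, 2.01e-01), and Ier3 was at -0.16 (8.35e-01). At 6 h Gadd45a was at 0.62 (4.61e-01). At 24 h 1 gene passed, Ier3 (3.15% of all genes were lower), with -1.11 ± 0.25 (1.92e-02): its WT rise of 1.57 stood against a KO rise of 0.46. That call was lost without KO 0 h array 2 (-1.03), KO 24 h array 2 (-1.05), WT 0 h array 1 (-1.08) or WT 24 h array 2 (-0.95). Gadd45g (-0.63, 5.31e-02), Gadd45a (-0.79, 1.24e-01) and Zfp36 (-0.42, 4.78e-01) had values below 0 without passing. Gadd45g passed with a stricter filter (4.31e-02), cyclic loess (2.89e-02), an intensity trend (4.98e-02) or array weights (4.65e-02), and Gadd45a in a fit of the compared groups alone (3.17e-02). The count was 3 without either KO 6 h array. In the same comparison 4 of 6 measured epithelial marker genes, 2 of 6 macrophage genes, 1 of 6 smooth muscle genes and 1 of 4 lymphocyte genes were lower. There 3 of 6 heat-shock genes and 1 of 3 uterine markers were higher, against 4.12% of all genes. The part of these markers in the result was not tested.

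**Figure D3:**
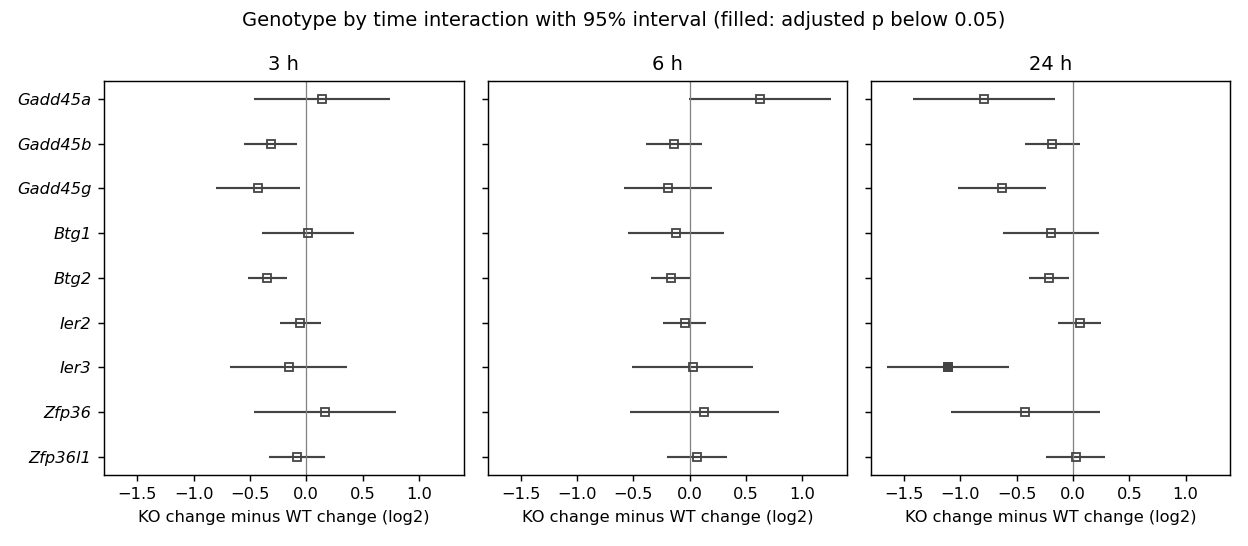
Genotype by time interaction (horizontal axis, KO change minus WT change, log2) of the 9 genes at 3, 6 and 24 h with 95% intervals from the limma fit; filled squares have an adjusted p below 0.05. Ier3 at 24 h, at -1.11, is the one filled square, and the interval of Gadd45a at 6 h reaches from just under 0 to 1.25.

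The 3 interactions tested together passed for 2 of the 9 genes, Ier3 (moderated F-test in limma, adjusted p = 3.11e-02) and Gadd45a (4.37e-02), where 6.83% of all genes passed. Without 1 array the count ranged from 0 to 3, and it was 0 without KO 0 h array 2, either KO 24 h array, WT 3 h array 1, either WT 6 h array or either WT 24 h array. It was 1 without KO 0 h array 1, KO 3 h array 2, WT 3 h array 2 or WT 3 h array 3. Gadd45a combined a KO value above WT at 6 h with one below WT at 24 h, and the 6 h value was carried by KO 6 h array 2: the 6 h interaction was 0.18 without that array and 1.07 without array 1. Btg2 missed the joint test (6.76e-02), and the other 6 genes had adjusted p-values from 1.24e-01 to 8.16e-01.

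Among the further probes, the dimmer one of Gadd45g differed most from the probe that stands for its gene. It read 9.36 and 9.29 in WT at 0 h and 13.14, 12.99 and 13.14 at 3 h, and 9.62 and 9.39 in KO at 0 h and 12.48 and 12.26 at 3 h. Both KO arrays at 3 h lay below the 3 WT arrays. The 3 h change on the dimmer probe was 3.76 ± 0.12 (SE) in WT and 2.86 ± 0.13 in KO, against 2.58 and 2.15 on the brighter one, whose 3 h values up to 15.37 are close to the top of the scale at 15.94. With the most variable probe standing for each gene, Gadd45g was lower in KO at 3 h by -0.72 (limma, adjusted p = 5.15e-03) and its 3 h interaction was -0.90 (3.05e-02), while its 24 h difference of -0.37 between KO and WT did not pass (1.12e-01). Whether the brighter probe was near saturation was not tested.

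**Figure D4:**
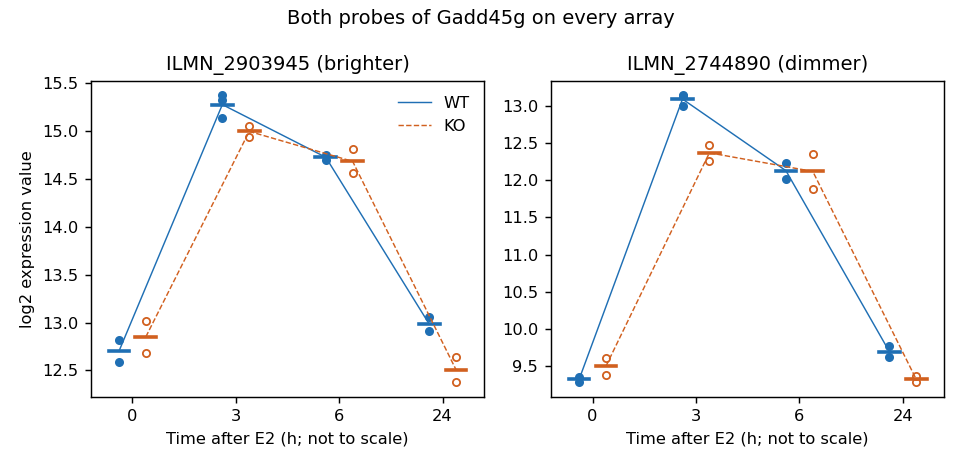
Log2 expression value (vertical axes, each with its own range) of both Gadd45g probes by hours after E2 (horizontal axis, not to scale), with a point per array and a bar per group mean, WT in blue and KO in orange. At 3 h the KO arrays of the dimmer probe lie at 12.48 and 12.26, below WT at 12.99 to 13.14, and the gap is narrower on the brighter probe.

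The other Gadd45a probe read from 9.97 to 12.17, with 3 h changes of 1.95 in WT and 1.90 in KO, close to those of the brighter one. The other Btg1 probe was at -0.78 in WT and -0.76 in KO at 3 h. The other Gadd45b probe was above the array median on 13 arrays, stayed between 8.13 and 8.52 and changed by 0.09 in WT and 0.19 in KO at 3 h. For Zfp36l1 the other probes were at 0.11 and 0.22 in WT at 3 h and at -0.47 and -0.26 at 24 h, and in KO at -0.74 and -0.28 at 24 h.

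Across the 17 arrays the 9 genes varied together to different degrees. These are descriptions over arrays that share the E2 time course, with no test. Gadd45a and Ier3 had a Pearson r of 0.930, Gadd45a and Gadd45g 0.928, Gadd45a and Zfp36 0.924, and Gadd45b and Zfp36 0.908. Btg1 ran against Ier3 (-0.756), and Zfp36l1 was closest to Gadd45b (0.878). Outside the 9, the genes most like Gadd45a were the AP-1 genes Junb (0.985) and Fos (0.979) and the cytokine-signalling inhibitor gene Socs3 (0.964). Gadd45g was most like Crispld2 (0.994), Tmem200a (0.988) and the AP-1 gene Fosl2 (0.987), and Ier3 like Rdh11 (0.966), Klf4 (0.966) and Eva1a (0.964). Zfp36 was most like Gpr146 (0.977), Mlxipl (0.975) and Ppp1r15a (0.974), and Gadd45b like Ccdc137 (0.974), Dusp1 (0.973) and Sag (0.972). The closest genes were Nek3, Atg13 and Pex6 for Btg1 (0.966 to 0.961), H1f10, Med26 and Wdr33 for Ier2 (0.975 to 0.970) and Ddx17, Iqcb1 and Zfp37 for Zfp36l1 (0.980 to 0.977). Btg2 had no gene above 0.869, its value with Lbx2, followed by Serpinb6b and Itgb2.

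Other gene lists, also chosen with earlier results of these data known, are described by counts. The shares of all genes at 3 h given above were 22.2% higher and 24.5% lower in WT and 19.0% and 21.4% in KO. Other genes of the same families were compared from a list of 8, of which 7 were measured. At 3 h 3 were higher and 1 lower in each genotype. Tob1, an antiproliferative gene of the BTG family, rose by 2.31 ± 0.19 (SE; limma, adjusted p = 2.67e-07) in WT and 2.63 ± 0.21 in KO (3.59e-07), a direction opposite to that of Btg1. In KO Tob1 was higher at 6 h than at 0 h by 0.85 (limma, 3.37e-03), but not in a fit of these groups alone (9.08e-02). The difference of Tob1 between KO and WT at 6 h, 0.36, did not pass (5.49e-01). Btg3 rose by 0.30 in WT and 0.27 in KO at 3 h, the latter lost without KO 0 h array 2 (0.22). Tob2 rose by 0.40 in WT, lost without WT 0 h array 1 (0.25), and Btg4 was lower by -0.21 in WT, lost without WT 0 h array 2 (-0.18), and by -0.34 in KO. Ier5l was the remaining higher gene in KO, at 0.31 (0.22 without KO 0 h array 2, no longer past the test).

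Among partners of the GADD45 proteins, 2 of 9 measured kinases and cell-cycle genes were higher and 3 lower at 3 h in each genotype, with the higher share close to that of all genes. Map2k3, a kinase that activates p38, rose by 0.81 ± 0.06 (SE; limma, adjusted p = 1.72e-07) in WT and 0.70 ± 0.07 in KO (2.54e-06), while Mapk8, which encodes JNK1, fell by -0.66 and -0.54. At 24 h Pcna, the replication clamp gene, was higher by 0.33 in WT, a call lost without WT 0 h array 2 (0.18) or WT 24 h array 1 (0.25), and by 1.10 in KO, and its interaction of 0.77 ± 0.12 passed (3.97e-03). The mitotic kinase gene Cdk1 was 1.18 higher in WT (2.01e-03; 5.06e-02 in a fit of these groups alone) and 2.10 higher in KO (1.09e-05).

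Of 18 p53 target and growth-arrest genes 16 were measured, and the list moved both ways: 8 were higher and 5 lower in WT at 3 h, and 5 and 6 in KO. The CDK inhibitor gene Cdkn1a rose by 2.15 ± 0.15 (SE; limma, adjusted p = 5.68e-08) in WT and 2.07 ± 0.16 in KO (3.04e-07), and the polo-like kinase gene Plk2 by 1.79 in WT and 0.92 in KO. The stress-response gene Sesn1 fell by -2.44 in WT and -2.69 in KO, Trp53inp1 by -1.46 and -1.50, and Ccng2, the gene of an unconventional cyclin, by -1.28 and -0.96. Plk2 was lower in KO than in WT at 3 h by -1.13 ± 0.13 (8.14e-04). The medians of the list at 3 h were 0.19 in WT and 0.08 in KO, against -0.01 over all genes.

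NF-kB feedback and stress-inducible genes, 10 measured of 12, were higher for 9 genes in WT at 3 h (median 0.71) and for 9 at 6 h (0.69). In KO 3 were higher at 3 h (median 0.20) and 7 at 6 h (0.64), and 7 were lower at 24 h (-0.54), against 1 lower in WT. The adhesion gene Icam1 rose by 1.87 ± 0.07 (SE; limma, adjusted p = 6.83e-10) in WT and 1.16 ± 0.07 in KO at 3 h (5.34e-08). Its interactions were -0.71 ± 0.10 at 3 h (4.51e-03; 6.95e-02 in a fit of the compared groups alone) and -0.75 ± 0.10 at 24 h (1.40e-03). Atf3 rose by 1.62 and 1.04 and Tnfaip2 by 1.40 and 0.88 in WT and KO at 3 h. Over all genes 22.5% were higher and 23.1% lower in KO at 24 h, and 18.9% and 19.0% in WT. At 0 h 3 genes of this list were higher in KO than in WT (2.24% of all genes), among them Icam1 by 0.44 (0.32 and no longer past the test without KO 0 h array 2).

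For the mRNA decay machinery that BTG and ZFP36 proteins recruit, 17 of 20 genes were measured, 6 were higher and 2 lower in WT at 3 h, and 5 and 2 in KO. The largest 3 h change in size was 0.65, of Cnot4 in KO. Khsrp, an AU-rich element binding protein gene, rose by 0.63 ± 0.08 (SE; limma, adjusted p = 3.10e-05) at 3 h and 0.94 ± 0.08 at 24 h (1.04e-06) in KO, with a 24 h interaction of 0.76 ± 0.12 (3.17e-03). Of 14 AU-rich transcripts known as targets of tristetraprolin 10 were measured, and 5 in WT and 4 in KO were higher at 3 h and none lower. Vegfa rose by 1.86 ± 0.11 (limma, 2.34e-08) in WT and 2.20 ± 0.12 in KO (3.05e-08). Cxcl1 rose by 0.76 in WT (3.63e-04) and by 0.58 in KO. The KO call was lost in a fit of these groups alone (1.03e-01), and the KO change was 0.26 without KO 3 h array 1. At 6 h Cxcl1 was higher in KO than in WT by 0.74. That call was lost in a limma fit of these groups alone (8.99e-02) and with the mean of probes (5.08e-02). It was also lost without KO 6 h array 2 (0.61), either WT 6 h array (0.75 and 0.73) or several arrays of other groups.

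Cell type markers that moved with these results were measured beside them. Their counts against 0 h are to be read against the shares of all genes given above for each genotype and time. For KO against WT at 24 h, 4.08% of all genes were higher and 4.27% lower. All 6 stromal fibroblast genes were lower in WT at 3 h (median -1.06) and 4 of 6 in KO (-0.49), and 5 and 4 were lower at 6 h. The summed stromal level was 15.86 to 15.94 in WT at 0 h and 15.15 to 15.26 at 3 h, and 15.62 to 15.69 and 15.13 to 15.29 in KO. Of 6 epithelial genes 5 were lower in WT at 3 h (median -0.32) and 4 in KO (-0.24). At 24 h 5 of the 6 were higher in WT (median 0.45), while in KO 2 were higher and 2 lower (0.06). The summed epithelial level at 24 h was 14.43 to 14.46 in WT and 14.16 to 14.25 in KO, and 2 of the 6 genes were lower in KO than in WT. All 6 genes of a heat-shock list, which can mark tissue handling, were measured, and 5 were higher at 3 h in each genotype and 4 at 6 h, with 1 lower at 6 h. The summed level of the list was 14.94 to 15.06 in WT at 0 h, 15.66 to 15.80 at 3 h, 15.54 to 15.60 at 6 h and 14.82 to 14.89 at 24 h. In KO it was 14.70 to 14.84, 15.62 to 15.65, 15.50 to 15.58 and 15.16 to 15.41. At 24 h 3 of the 6 were higher in KO than in WT. Of 6 adipocyte genes 5 were measured, and all 5 were lower at 3 h in both genotypes. KO 6 h array 2, which was high in Gadd45a, Ier3 and Zfp36, had a summed adipocyte level of 12.51, against 10.68 in array 1. The KO 3 h arrays had summed adipocyte levels of 10.71 and 12.34, and their values of Gadd45a, Ier3 and Zfp36 lay close together. Whether adipocyte content bears on these values was not tested. Macrophage genes, 6 of 7 measured, summed to 14.12 in KO 0 h array 2 and 13.29 in array 1. All 6 were lower in KO at 24 h than at 0 h, as were 3 of 4 measured lymphocyte and 3 of 4 endothelial genes. Against WT at 24 h, 1 of 6 macrophage, 0 of 4 lymphocyte and 0 of 4 endothelial genes were lower in KO. The part of these markers in the changes of the 9 genes was not tested.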

How the data were processed

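Biotin-labelled uterine RNA was hybridised to 17 Illumina arrays, per the labels' protocols, and read with BeadStudio, per the submitters' processing notes. The authors deposited log2 values after quantile normalization: every column holds the same sorted values (median 8.20, highest 15.94). The sources used here do not give the background correction, and scanner values were not used. Arrays have no depth, and their number limits the precision.

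Probes with 1 gene symbol in the platform annotation and a value over the array's median on 2 or more of 17 arrays were kept, and the brightest represented its gene (14737 genes). A model with 8 group means was fitted with limma 3.58.1 in R 4.3.3, with empirical Bayes moderation (9 residual and 4.56 prior degrees of freedom), two-sided tests and Benjamini-Hochberg adjustment over all genes per comparison at 0.05. The fit was tested on simulated data. Changes and SEs of dimmer probes come from a fit over all kept probes. The named genes were the 9 genes, the 3 genes most like each by Pearson r, and up to 3 highest and 3 lowest called genes of 6 companion lists per comparison. The 9 genes and all lists were chosen with earlier results of these data known. Alternatives were other probe choices, filters, scalings, moderation, array weights, fits of the compared groups alone, replicate blocks, thresholds, and leaving out each array.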

Additional observations from a re-analysis of the deposited data

Results flagged for a closer look

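The response to E2 of 2 of the 9 genes differed between the genotypes by a test of the difference itself. Of all genes 6.83% passed the joint test, and 3.15% were lower in the 24 h interaction. For Ier3 the change at 24 h was lower in KO than in WT by -1.11 ± 0.25 (SE) on the log2 scale (limma, adjusted p = 1.92e-02): the KO arrays rose by 0.46 and the WT arrays by 1.57. The 3 interactions of Ier3 tested together had an adjusted p of 3.11e-02. For Gadd45a the joint test had an adjusted p of 4.37e-02, while its interactions were 0.62 at 6 h and -0.79 at 24 h and neither passed alone in the model of all 8 groups. In a fit of the compared groups alone the 24 h interaction of Gadd45a passed (limma, 3.17e-02). Both calls were lost when certain arrays were left out in turn, as described above. With 1 array left out the 24 h interaction of Ier3 ranged from -1.27 to -0.95. The 6 h interaction of Gadd45a was 0.18 without KO 6 h array 2.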

How the results depend on the processing

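Of 65 called changes of the 9 genes 54 kept their call at 0.05 under every other probe choice, filter, scaling, moderation, weighting, choice of groups and replicate block, 45 kept it without each array in turn, and 44 did both; none changed sign. The reversed values were of changes near 0 or rested on the probe: Zfp36l1 in KO at 6 h was -0.024 with the mean of probes and -0.064 with cyclic loess instead of 0.029, Btg2 in KO at 3 h was 0.044 with a replicate block by title letter instead of -0.017, Mapk9 in KO at 24 h was 0.085 with the mean of probes instead of -0.41, and Tob2 in KO at 24 h was 0.0083 with the most variable probe instead of -0.61. With 1 array left out the reversed changes ranged from -0.10 to 0.046 (Ier2, KO 24 h), -0.063 to 0.12 (Zfp36l1, KO 6 h), -0.13 to 0.058 (Zfp36l1, WT 6 h), -0.088 to 0.055 (Btg2, KO 3 h), -0.0079 to 0.028 (Btg2, WT 6 h) and -0.14 to 0.18 (Ier3, WT 24 h against 6 h). Counts of the 9 genes that moved by over 1.5 times were as follows. Higher in KO at 24 h was 0 instead of 1 with the mean of probes, no filter, cyclic loess, median centring, a threshold of 0.01 or a change of at least 1. Lower in KO at 6 h was 1 instead of 2 with a stricter filter, cyclic loess, array weights, the compared groups alone or a threshold of 0.01. Lower in KO against WT at 3 h was 1 instead of 0 with the mean of probes or the most variable probe, and the 3 h interaction was 1 instead of 0 with these or an intensity trend. The 24 h interaction was 2 instead of 1 with a stricter filter, cyclic loess, an intensity trend, array weights or the compared groups alone, and 0 at a threshold of 0.01. Lower in KO from 3 to 6 h was 0 instead of 3 with array weights or the compared groups alone. Lower in KO against WT at 24 h was 1 instead of 2 with the most variable probe. The joint test gave 0 instead of 2 at 0.01, and KO against WT at 24 h also gave 0 there. At 0.01 the other counts were 1 higher at 24 h in WT, 3 lower at 24 h in KO, and 5 and 1 lower from 3 to 6 h in WT and KO. With a change of at least 1 as well, 4, 2 and 1 genes were higher in WT at 3, 6 and 24 h, 1 was lower from 3 to 6 h and 2 from 6 to 24 h in WT, and 0 were lower in WT or KO at any time against 0 h, in KO from 3 to 6 h, or in KO against WT at 24 h. With 1 array left out the counts ranged from 3 to 6 (higher, WT 6 h), 1 to 2 (higher, WT 24 h), 0 to 1 (higher, KO 24 h), 1 to 2 (lower, KO 6 h), 5 to 8 (lower, WT 3 to 6 h), 1 to 4 (lower, KO 3 to 6 h), 0 to 1 (KO against WT, 3 h), 0 to 3 (KO against WT, 24 h), 0 to 2 (interaction, 3 h), 0 to 3 (interaction, 24 h) and 0 to 3 (joint test). The cause of these shifts was not tested, and leaving out an array also lowers the number of arrays. Deviations of same-numbered arrays from their group means correlated at -0.19 to 0.31 over 56 pairs, 11 of them above 0.1. By title letter the correlations were -0.28 to 0.31 over 50 pairs, 9 of them above 0.1. In a group of 2 arrays the deviations mirror each other, so many of these pairs repeat the same value. The check therefore cannot decide whether replicate numbers or letters pair the samples. The replicate block by description number gave 1 gene instead of 2 in the joint test, and the block by title letter 1 there and 1 instead of 2 for KO against WT at 24 h. Dim probes (Btg2, Ier2) have little signal over background, and most groups have 2 arrays.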
